A study of Rattus norvegicus with 48 samples.

Results

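A set of 136 short loci carried a listed methylation difference in the sperm of F1 and F2 rats and in no cytosine of the F3 lists. They were found by pooling 6 deposited lists of differentially methylated cytosines, 1 hypermethylated and 1 hypomethylated for each of 3 generations. Cytosines of one chromosome at most 1000 bp apart were joined, and loci with fewer than 5 distinct cytosines that held F1 and F2 cytosines and no F3 cytosine were kept. The set holds 210 of the 3998 distinct listed cytosines (5.25%) and 136 of the 2716 loci (5.01%). Because being listed in F1 and F2 chose the loci, their differences in these 2 contrasts are a description and were not tested.

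The study followed a Sprague-Dawley rat line whose founder females (F0), from an age of 5 weeks, were given an Arctic mixture of persistent organic pollutants by gavage at 500 µg per kg body weight, and a control line given corn oil alone. The gavage was given 3 times a week for 5 weeks and then through mating to birth, so the treatment of later generations is that of their ancestors. Epididymal sperm of males killed at 90 days was read by reduced representation bisulfite sequencing (RRBS). This method samples CpG-rich fragments, in which unmethylated cytosines are then converted before reading. The labels give 48 samples, 6 control and 6 organochlorine samples for each of 4 labelled generations, whereas the lists are described as F1, F2 and F3. The lists' names are used here, and which samples entered which list is left undecided.

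Methylation of cytosines in CpG dinucleotides is copied to the daughter strand when DNA is replicated, so both strands of a CpG usually carry the same state. In mammals most of this methylation is erased in the germ cells of the fetus and later set again. A fetus carried during dosing is itself exposed, and so are its germ cells, which give rise to the next generation. Counted from the dosed F0 females, F1 animals and the germ cells that form F2 animals were therefore reached by the dose directly. An F3 animal so counted formed from germ cells that never met it. Because the samples behind each list are undecided, the exposure of the animals in each list is not settled here.

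Each listed value is the authors' methylation difference between the lines in percentage points (called points below), with a minimum of 20 points and a false discovery rate below 1%. No values of single samples were analysed here, so a difference has no replicate error and the depth behind it is unknown. Hypermethylated and hypomethylated keep the sense of the list titles, because the order of the subtraction is not described. A locus without an F3 cytosine may have missed either of these limits in F3 or may not have been covered there, and these cannot be told apart. Coordinates follow Rnor_5.0, the rat build the authors used, and are given without gene context.

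Most of the loci were very small. A single cytosine made up 83 of the 136 (61.0%), and by the rule that cytosine was listed in both generations. Shares in other short loci are given below. The 2 strands of 1 CpG made up another 23 loci. In 17 of these both strands were listed in both generations, and in 6 only 1 strand was. The remaining 30 loci held cytosines of 2 or more CpGs, with a median span of 68 bp and a largest span of 875 bp. Counted by cytosine, 149 were listed in both F1 and F2, 30 in F1 alone and 31 in F2 alone. The cytosines divided into 109 on the plus strand and 101 on the minus strand.

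The direction was the same in F1 and F2 at 119 of the 136 loci (87.5%). Over all 281 loci of any size with cytosines in both lists, the 136 included, it was the same in 89.0%, which is near the share in the 136. Of the 119 loci, 62 were hypermethylated in both generations and 57 hypomethylated in both. Another 10 went from hypermethylated in F1 to hypomethylated in F2, and 7 went the other way. A locus took the sign of the mean over its listed cytosines in a generation.

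**Figure D1:**
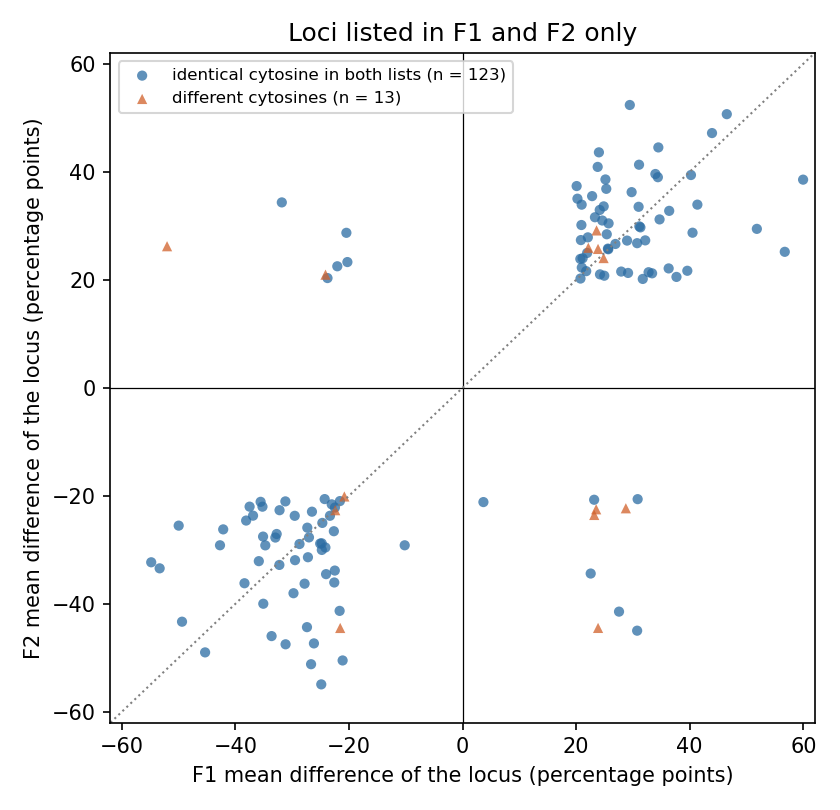
Mean methylation difference of each of the 136 loci in F1 (x axis) and F2 (y axis), both in percentage points, with circles for the 123 loci that hold an identical cytosine in both lists and triangles for the 13 that do not; the dotted line marks equal values. The 119 loci with the same direction lie in the lower left and upper right, and the 17 with opposite directions in the other 2 quadrants.

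Hypermethylated loci were close to an equal split in both generations. In F1, 72 of the 136 loci (52.9%) were hypermethylated, beside 63.8% of all 1283 loci with an F1 cytosine. In F2 it was 69 loci (50.7%), beside 55.4% of all 831 loci with an F2 cytosine. Both shares rest on the contrasts that chose the loci, and nothing is read from them.

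Loci that shared the exact cytosine mostly shared the direction, a difference that was not tested. Of the 123 loci that held an identical cytosine in both lists, 112 (91.1%) had the same direction. Of the 13 loci that joined an F1 cytosine to a different F2 cytosine, 7 had the same direction and 6 the opposite one. These 13 loci spanned 7 to 875 bp, with a median of 62 bp, and their median absolute differences were 23.6 points in F1 and 24.02 points in F2. The loci with an identical cytosine had medians of 27.8 points in F1 and 29.2 points in F2. At the level of single cytosines, 137 of the 149 listed in both generations kept their direction and 12 did not.

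The differences were of moderate size. In F1 the absolute mean difference of a locus had a median of 27.1 points, with quartiles of 23.3 and 33.7 and a maximum of 59.96. In F2 the median was 28.8 points, with quartiles of 23.5 and 35.6 and a maximum of 54.9. At least 25 points in both generations were reached by 61 loci, at least 30 points by 24 and at least 40 points by 4. The deposited q-value was listed at 0 for 114 of the 179 F1 cytosines and 106 of the 180 F2 cytosines, and the largest q was 0.0069 in F1 and 0.0068 in F2, so q does not rank most of these sites.

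Those 4 loci were 2 hypermethylated ones on chromosome 17 and 2 hypomethylated ones on chromosomes 4 and 10. The leading one was the CpG at chromosome 17, positions 12276563 and 12276564, listed on both strands. The authors' deposited table gave its plus strand 45.0 points in F1 and 51.6 points in F2, and its minus strand 48.0 and 49.7 points. Only 1369 bp away, the cytosine at chromosome 17, position 12277933, had 43.9 and 47.2 points in the authors' deposited table. These neighbours were therefore alike in direction, in size and in the small change from F1 to F2.

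The hypomethylated pair lay apart from each other. At chromosome 4, position 232048312, the authors' deposited table listed -45.3 points in F1 and -49.0 points in F2. Both strands of the CpG at chromosome 10, positions 85137627 and 85137628, were listed, and the plus strand had -48.6 and -46.6 points in the authors' deposited table. The minus strand of that CpG had -50.2 points in F1 and -40.1 points in F2 in the authors' deposited table. The nearest cytosine of the F3 lists was 6.62 Mb from the chromosome 4 site and 401 kb from the CpG on chromosome 10.

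Among the next hypermethylated loci, the CpG at chromosome 3, positions 174233273 and 174233274, changed least. The authors' deposited table gave its strands 41.0 and 39.5 points in F1 and 39.0 and 39.8 points in F2. The largest F1 difference of all 136 loci was also on this chromosome, at position 12386460, where the authors' deposited table had 59.96 points in F1 and 38.5 points in F2. Chromosome 7 gave 2 sites to the ranking: in the authors' deposited table, position 46383916 had 34.5 and then 44.5 points and position 63373542 had 34.4 and then 39.0 points. The ranking ended with chromosome 18, position 71759132, at 33.9 and 39.6 points, and chromosome 6, position 109039361, at 41.3 and 33.9 points in the authors' deposited table. The chromosome 6 site lay 2642 bp from a cytosine of the F3 lists, in a locus listed in F2 and F3. It left the set when loci were merged at 10000 bp. Of these 8 hypermethylated leaders, 5 were larger in F2 and 3 in F1.

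Among the next hypomethylated loci, chromosome 14, position 79789201, had -38.4 points in F1 and -36.2 points in F2 in the authors' deposited table. At chromosome 16, position 50203072, the authors' deposited table had -35.1 and -40.0 points. The CpG at chromosome 17, positions 69083534 and 69083535, was at -30.5 and -36.7 points on its strands in F1 and at -43.2 and -48.8 points in F2, in the authors' deposited table. An almost level pair of values, -32.3 and -32.8 points, stood in the authors' deposited table for chromosome 15, position 44623677. A pair of leaders had clearly smaller values in F2: chromosome 3, position 27988963, went from -53.3 to -33.4 points, and chromosome 5, position 160990173, from -54.8 to -32.3 points, in the authors' deposited table.

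The sizes in F1 and F2 were only loosely related. Across the 136 loci the absolute differences had a Pearson r of 0.15 and a Spearman rho of 0.15. This correlation is over loci, not samples, and all loci share the same contrasts and the same lower limit of 20 points per cytosine. The median change from F1 to F2 was 0.41 points, with quartiles of -4.95 and 8.27. The difference was larger in F2 at 74 loci and larger in F1 at 62. That is 54.4% larger in F2, beside 56.2% of all 281 loci with F1 and F2 cytosines. The change was under 1 point at 18 loci, at least 10 points at 52 and at least 20 points at 13.

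**Figure D2:**
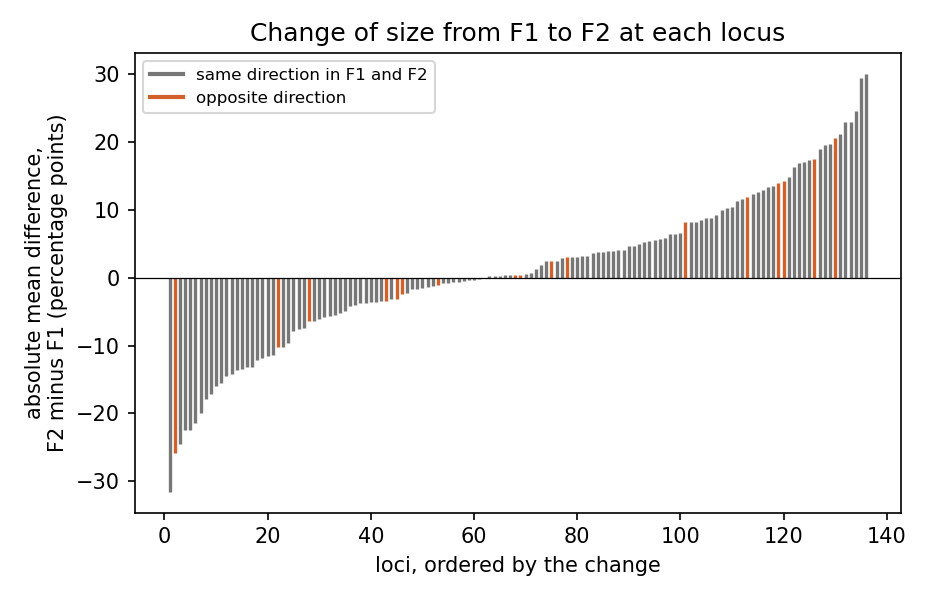
Change of the absolute mean difference from F1 to F2 (y axis, percentage points) at each of the 136 loci, ordered along the x axis, with the 17 loci of opposite direction in orange and the others in grey. The values run from -31.6 to 30.04, with 62 loci below 0 and 74 above.

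Of the 4 loci whose size in F2 exceeded that in F1 the most, each was hypomethylated, but the last of them was nearly level with the next locus, which was hypermethylated. The single cytosine at chromosome 19, position 60740650, had -24.9 points in F1 and -54.9 points in F2, the largest F2 difference of the 136, in the authors' deposited table. Both strands of the CpG at chromosome 7, positions 63301558 and 63301559, moved alike, from -20.4 and -21.9 points to -51.6 and -49.4 points in the authors' deposited table. Chromosome 20, position 12054906, went from -26.7 to -51.2 points in the authors' deposited table. The remaining one, on chromosome 3 from 170669410 to 170669484, held different cytosines in each generation. It had -21.5 points at 1 cytosine in F1 and -40.8 and -48.2 points at the 2 strands of a neighbouring CpG in F2, in the authors' deposited table. Its mean gained 22.93 points. The next locus, the single cytosine at chromosome 10, position 67837002, gained 22.92 points and was named after its values were seen. It had 29.4 points in F1 and 52.4 points in F2 in the authors' deposited table.

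The 4 loci with the largest difference the other way were of both directions. The cytosine at chromosome 6, position 113625394, had 56.7 points in F1 and 25.2 points in F2 in the authors' deposited table. The hypomethylated site at chromosome 3, position 11628984 had -50.0 and then -25.5 points in the authors' deposited table, and the chromosome 5 site at 160990173, given above, was another. The remaining locus, on chromosome 14, also turned its direction and is given with the reversed loci.

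The spread between the strands of one CpG gives only a rough scale for these changes. Both strands come from the same sperm DNA but from different reads. Both strands of a CpG were listed in the same generation 46 times in these loci, 20 times in F1 and 26 times in F2, and all 46 pairs agreed in direction. Their median gap was 3.65 points, with an upper quartile of 7.73 and a largest gap of 17.1. In the other loci of the lists, 445 of 453 such pairs agreed in direction, with a median gap of 4.94 points. The median change in size of the 149 cytosines listed in both generations was 7.57 points. This change is taken on absolute values, so the 12 cytosines that changed direction count by size alone. It is also not limited to CpGs with both strands listed, so it is not directly comparable with the strand gap. Strand gaps do not hold the spread between animals, and only pairs with both strands past the lists' limits could be counted. One strand alone was listed at 139 of 159 CpGs in F1 and at 128 of 154 in F2.

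The 17 loci of opposite direction lay on 10 chromosomes, and their differences tended to lie near the lower limit. Of these 17, 13 were under 25 points in F1 or F2, and 4 reached 25 points in both, against 57 of the 119 loci with one direction. Their medians were 23.8 points in F1 and 23.3 points in F2, beside 27.4 and 29.2 points in the 119. Single cytosines accounted for 6 of the 17, strand pairs of 1 CpG for 2, and loci of several CpGs for 9, of which 6 held no identical cytosine.

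At 2 of the reversed loci both generations reached 30 points. The cytosine at chromosome 10, position 48950559, went from -31.8 points in F1 to 34.3 points in F2 in the authors' deposited table. At chromosome 2, positions 58070933 and 58070934, the 2 strands of one CpG had 31.9 and 29.6 points in F1 and -50.4 and -39.6 points in F2, in the authors' deposited table. Here the reversal was listed on both strands. Some 661 kb upstream, chromosome 2, position 57410253, turned the same way, from 23.2 to -20.7 points in the authors' deposited table. Chromosome 3, position 158863933, went from 27.5 to -41.5 points in the authors' deposited table.

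On chromosome 7 the CpG at positions 77161547 and 77161548 had 22.6 points on its plus strand in F1 and -33.5 and -35.3 points on its strands in F2, in the authors' deposited table. The authors' deposited table put position 113133608 of chromosome 13 at -23.8 points in F1 and 22.5 points in F2, and position 113133566 nearby was at -20.3 points in F1 alone. Other reversals compared different cytosines. Between 48970451 and 48970607 of chromosome 14, the authors' deposited table listed 3 cytosines at 25.7 to 27.2 points in F2 and another, further along, at -52.0 points in F1. On chromosome 11 the authors' deposited table had 23.9 points at position 71364547 in F1 and -44.5 points at position 71364580 in F2. The like loci at chromosome 5 (149185438 to 149185487), chromosome 6 (62704267 to 62704311) and chromosome 7 (13591024 to 13591085 and 81877947 to 81878362) had absolute differences of 20.9 to 28.7 points. Because no cytosine of these 6 loci was listed in both generations, they show no reversal at any single site.

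One locus was set among the reversed ones only by its mean, and it was picked out after its values were seen. On chromosome 5 the CpG at positions 118671569 and 118671570 was hypermethylated in F1, at 37.6 and 41.8 points, in the authors' deposited table. The CpG at positions 118671683 and 118671684 was hypomethylated in F1, at -33.9 and -30.9 points, and its minus strand had -21.2 points in F2, in the authors' deposited table. The F1 mean of 3.67 points is the smallest of the set, although each of its 4 cytosines passed 30 points in F1. At the cytosine listed in both generations the direction was the same. Only 1 other locus, on chromosome 20 from 12246857 to 12247161, mixed directions within a generation.

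The loci with the most cytosines listed in both generations still held few. On chromosome 20, from 12080753 to 12080798, 4 plus-strand cytosines had 27.5 to 30.7 points in F1, and 3 of them 20.3 to 22.1 points in F2, in the authors' deposited table. Another 24 loci held 2 cytosines listed in both generations. In 17 of these the 2 cytosines were the strands of a single CpG, and in 7 the locus held several CpGs. Among the single CpGs, the one at chromosome 13, positions 3058642 and 3058643, had 30.3 and 39.1 points in F1 and 34.5 and 27.9 points in F2 in the authors' deposited table. The number of listed cytosines was equal in the 2 generations at 114 loci, larger in F1 at 9 and larger in F2 at 13.

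The 100 loci not named by the ranking rules held 51 hypermethylated in both generations, 44 hypomethylated in both and 5 of opposite direction. Their absolute differences ran from 3.67 points, the chromosome 5 mean above, to 51.8 points in F1, with a median of 25.5. In F2 they ran from 20.1 to 52.4 points, with a median of 27.5.

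The loci fell on all 20 chromosomes in the lists, unevenly. Chromosomes 2 and 3 held 16 each, chromosomes 6 and 7 held 12 each, chromosome 20 held 10 and chromosome 17 held 9, whereas chromosomes 12 and 18 held 1 each. As a share of the loci listed in F1 or F2, the whole set made up 7.42% of 1833. That share was 13.1% on chromosome 3, 12.7% on chromosome 17, 11.3% on chromosome 2, 11.1% on chromosome 6 and 10.6% on chromosome 20. At the low end it was 1.09% on chromosome 12, where 92 loci were listed in F1 or F2, 1.96% on chromosome 18, 2.70% on chromosome 9 and 3.76% on chromosome 1, where 186 were. Reversed loci made up 4 of the 8 on chromosome 10 and 3 of the 12 on chromosome 7, and none of the 10 on chromosome 20 or the 9 on chromosome 17. The cytosines covered on each chromosome were not known, and these chromosomes were picked after their values were seen.

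**Figure D3:**
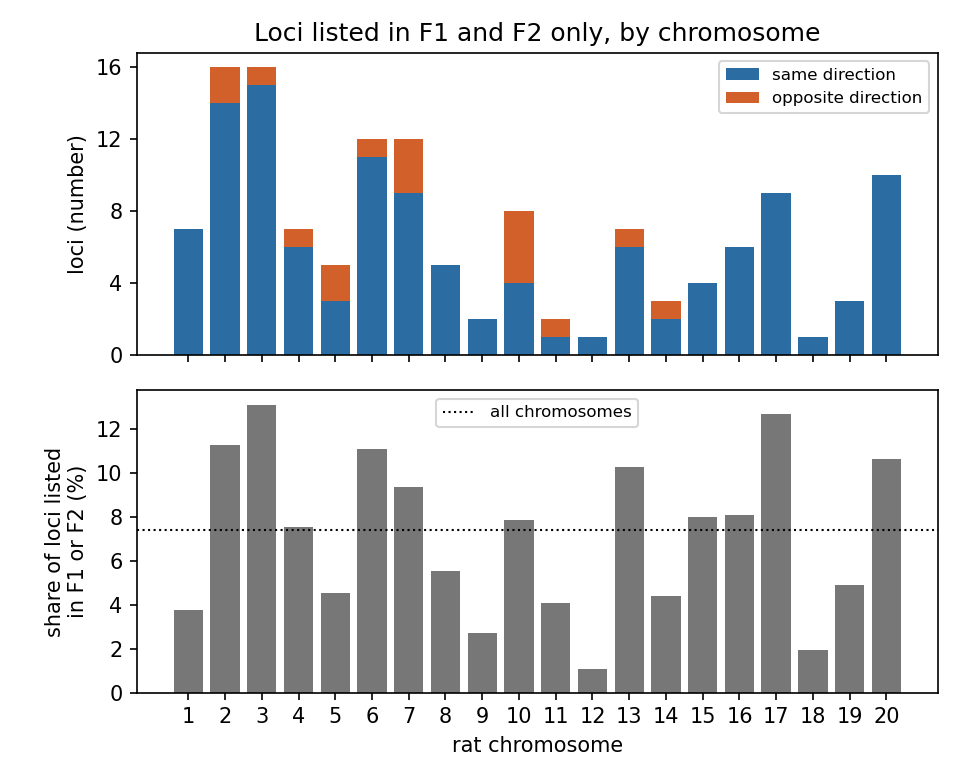
Upper panel: number of the 136 loci on each rat chromosome (x axis), with the same direction in F1 and F2 in blue and opposite directions in orange. Lower panel: the loci as a percentage of all loci listed in F1 or F2 on that chromosome, with the value over all chromosomes, 7.42%, as a dotted line; chromosomes 2, 3, 6, 7, 13, 17 and 20 stand above 9%.

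Some of the loci stood near each other. With gaps of at most 1 Mb, 53 of the 136 fell into 22 groups and 83 had no other member that near. Listed loci of any kind were dense on this scale. Of the 136, 122 had another listed locus within 1 Mb, and the median distance to the nearest was 155 kb. Whether the members group more than other listed loci was not tested. In 10 of the 22 groups every locus had one direction in both generations. The closest group of 3 lay on chromosome 17, from 12276563 to 12495821, where all were hypermethylated in F1 and F2 and no other listed locus lay between them. It held the leading CpG and its neighbour, and a further CpG at 12495820 and 12495821 with 40.7 and 23.6 points in F1 and 23.4 and 31.2 points in F2, in the authors' deposited table.

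Chromosome 20 held groups of 5 and 4. In the first, from 8987438 to 10014608, all 5 kept their direction, 4 of them hypermethylated, and their mean differences were 20.2 to 27.8 points in size in F1 and 25.9 to 36.3 points in F2. This group lay among 17 listed loci, 6 of them with an F3 cytosine. In the second, from 12054906 to 12247161, all 4 kept their direction, 3 of them hypomethylated, among 5 listed loci in all. The group of 4 on chromosome 3, from 10397449 to 12386460, also kept its directions, with 3 hypomethylated and the large hypermethylated site at its end. On chromosome 7, from 11837735 to 13591085, 2 of 3 loci were hypomethylated in both generations and the third, already given, joined different cytosines.

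Groups of 2 included a pair on chromosome 19, 18.6 kb apart and both hypomethylated. The CpG at 60722083 and 60722084 went from -32.7 and -29.7 points in F1 to -48.3 and -46.7 points in F2 in the authors' deposited table, and the cytosine at 60740650, given above, was also lower in F2. Some 127 kb further on lay a larger locus of 8 cytosines, also listed in F1 and F2 only, with means of -20.1 and -25.2 points. On chromosome 10, by contrast, the reversed sites at 48950559 and 49191339 turned in opposite senses, and the second went from 30.8 to -20.6 points in the authors' deposited table.

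The rule's limits were checked once. There were 8 loci with 4 cytosines, just inside, and their absolute means ran from 3.67 to 52.0 points in F1 and from 20.3 to 30.4 points in F2. Just outside, 1 locus with 5 cytosines, on chromosome 15 from 36936046 to 36936105, had means of 27.3 and 25.1 points. In all, 10 loci with 5 to 30 cytosines met every other condition, and all 10 had the same direction in F1 and F2. The merging distance of 1000 bp already excluded an F3 cytosine that near to a locus, so its absence there is set by the rule. No F3 cytosine lay within 2000 bp of any of the 136 loci, and the nearest was 2086 bp from chromosome 10, position 45277066, which had -29.5 and -31.9 points in the authors' deposited table. Among the loci of the same size listed in all 3 generations, the F3 cytosine was at most 73 bp from the nearest F1 or F2 cytosine. The same rule had joined those F3 cytosines to their loci, so a short distance was built in and the contrast shows nothing further. The median distance from the 136 loci to an F3 cytosine was 376 kb. An F3 cytosine lay within 100000 bp of 35 loci and within 10000 bp of 3. Besides the chromosome 10 site, these were 2 on chromosome 6: the leader at 109039361, at 2642 bp, and the locus from 144657641, at 5221 bp.

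Other short loci gave a measure of the direction in pairs of lists. The same direction in F1 and F2 was seen in 89.1% of the 128 loci listed in all 3 generations, close to the 87.5% of the 136 loci. It was seen in F2 and F3 in 83.5% of the 164 loci listed in those generations only, and in F1 and F3 in 61.4% of the 197 loci listed in those only. An identical cytosine was held by 90.4% of the 136 loci, 92.7% of the F2 and F3 loci and 85.8% of the F1 and F3 loci. Of the loci with an identical cytosine the same direction was then 91.1%, 86.2% and 63.9%. None of these differences was tested, since the listing that chose the loci rests on the same values.

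**Figure D4:**
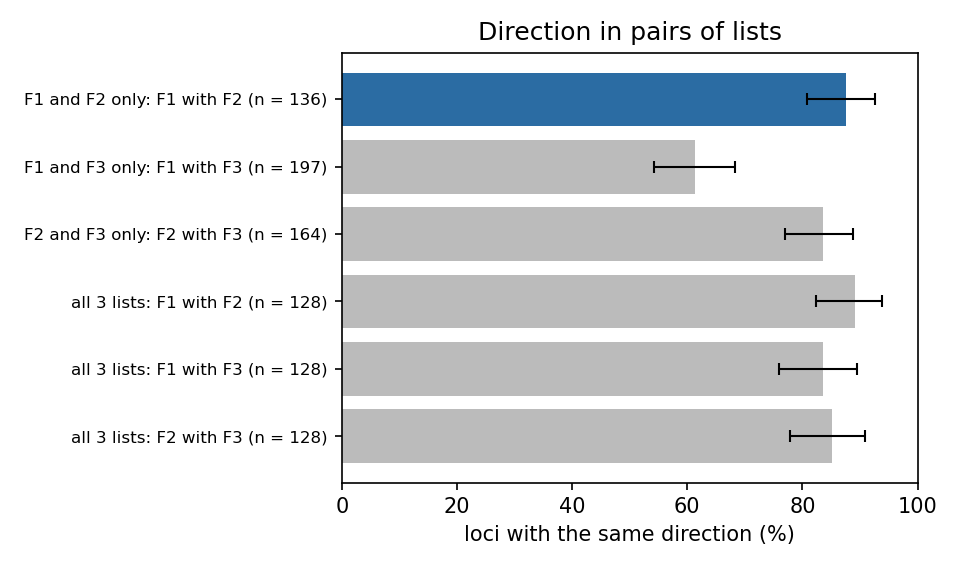
Share of loci with the same direction (x axis, %) in each pair of lists, for loci with fewer than 5 cytosines, grouped by the generations that list them; bars start at 0 and whiskers are 95% exact Clopper-Pearson intervals, which cover the counting of loci only. The 136 loci listed in F1 and F2 only (blue) are at 87.5%, with an interval of 80.7% to 92.5%.

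In F1 the typical size in the 136 loci lay close to that in other recurrent loci. The median absolute difference in F1 was 27.1 points in them, 27.3 points in the F1 and F3 loci and 27.4 points in the loci of all 3 generations, against 23.8 points in the 786 loci listed in F1 alone. In F2 it was 28.8 points in the 136 loci, 27.0 points in the F2 and F3 loci and 33.8 points in the loci of all 3 generations, against 23.97 points in the 372 loci listed in F2 alone. Loci of 1 cytosine made up 61.0% of the 136, 58.5% of the F2 and F3 loci and 49.7% of the F1 and F3 loci. Their share was 55.5% in all 3 generations, 88.8% in F1 alone and 80.1% in F2 alone. A locus joined from several lists can gather cytosines from each, so a lower share than in a single list is partly built in. These medians are over listed loci, which begin at 20 points for each cytosine, and were not tested.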

How the data were processed

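Sperm DNA of Sprague-Dawley rats was read by RRBS. Tools in the submitters' processing notes include methylKit 0.9.4 and Bismark 0.14.5, next to Trim Galore 0.4.0, with Rnor_5.0 as build. Their settings, such as a minimum coverage, are not given. The authors deposited 6 lists with, for each cytosine, a signed difference in percentage points, a p-value and a q-value, kept at a false discovery rate below 1% and a difference of at least 20 points, per the description deposited with them. Only group differences were used, so the depth of each sample is unknown and lanes could not be separated. By the labels, the generations numbered 1 and 2 shared the same 2 lanes, from 2 runs, and those numbered 3 and 4 shared 2 others. These numbers need not match the lists' F1 to F3, because the samples that cite the lists are numbered 2, 3 and 4. Read in that order, which is left undecided, the lists that shared lanes would be F2 and F3 rather than F1 and F2. Control and organochlorine samples of a generation lay in the same lanes. Whether shared lanes bear on which generations list the same loci, or on their directions, was not tested.

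Cytosines (chromosome, position, strand) at most 1000 bp apart were merged across the lists, and a locus took the mean difference of its cytosines in each generation. The merging was tested on simulated data. No test between groups was made. Loci were named by rule: the 8 hypermethylated and 8 hypomethylated with the largest smaller difference, up to 12 reversed, 6 with the most shared cytosines, the 4 largest rises and 4 largest drops, groups of at least 3 within 1 Mb, and those at the rule's limits. The members, rules and alternatives were chosen with earlier results of these data known. Alternatives changed the merging distance, size limit, minimum difference, q-value, strand handling and locus summary. Values were calculated with pandas 2.3.3 and numpy 2.4.6 under Python 3.11.15, and intervals with SciPy 1.17.1.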

Additional observations from a re-analysis of the deposited data

How the results depend on the processing

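No recomputed value of a named locus changed sign under the 9 alternatives. The listed cytosines of each such locus had a single sign per generation, so only wider merging could have turned one. Nearly all values of the set are counts, shares or absolute sizes and have no sign. The interval of the median change from F1 to F2, taken over the loci, was -0.62 to 3.04 points. It covers the counting of loci only and holds no spread between animals, so it tests nothing. The sign of this change is not read. Values of the set moved beyond their 95% binomial interval, or by over 1.5 times for counts, under 4 of the 9 alternatives. These intervals, also over loci, serve only as a yardstick for movement and not as tests. With no upper limit on cytosines the 136 loci became 146 and the 210 cytosines 323. With at least 25 points in all lists there were 90 loci and 129 cytosines, with the same direction in 95.6%, an identical cytosine in 97.8%, and medians of 32.0 points in F1 and 33.5 points in F2. With at least 25 points in F1 and F2 and the F3 lists whole, there were 66 loci and 95 cytosines, with the same direction in 93.9%, an identical cytosine in 97.0%, and medians of 31.8 and 33.0 points. At q of at most 1e-05 in all lists, an identical cytosine was held by 94.96% of 119 loci. The stricter lists hold fewer small differences by construction. Of the 136 loci, 64 were still in the set at 25 points in all lists and 114 at the stricter q. Of the 36 loci named by the ranking rules, 24 were still in the set at 25 points under either form and 28 at the stricter q. Taking the largest difference of a locus moved 3 values of named loci by more than the median strand gap: chromosome 2, 58070933, to -50.4 points in F2, chromosome 3, 170669410, to -48.2 points in F2, and chromosome 13, 3058642, to 39.1 points in F1. Merging at 100, 2000 or 10000 bp gave 135, 134 and 138 loci and the same direction in 88.9%, 87.3% and 83.3%. Depth per cytosine is unknown, and a locus absent from F3 could have missed a limit of the lists or not been covered there. No paired analysis was possible because the lists hold no values of single samples, and leaving out a replicate was not possible for the same reason.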

Other observations

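Among the 136 loci, 6 lay within 1 Mb of a larger locus that was also listed in F1 and F2 only. Of these, 5 had the direction of the larger locus in both generations. On chromosome 16, from 8616428 to 8616429, the means were 31.1 points in F1 and 41.3 points in F2, 15.5 kb from a locus of 13 cytosines with means of 22.3 and 22.7 points. The exception was on chromosome 6, from 144657641 to 144657655, which was hypermethylated with means of 23.8 and 40.9 points. It lay 62.4 kb from a run of 30 cytosines that was hypomethylated in both generations, with means of -43.1 and -27.2 points. A locus listed in all 3 generations lay nearer to it, 5157 bp away. These pairs were looked for after the values were seen.

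The nearest listed locus was sought among loci of any size. For the 136 it was listed in F1 alone in 48 cases, in F2 alone in 20 and in F3 alone in 24. It was listed in F1 and F2 only in 24, in F1 and F3 only in 9 and in F2 and F3 only in 8. In 3 cases it was listed in all 3 generations. Of the 2716 loci, those with fewer than 5 cytosines numbered 786 in F1 alone, 372 in F2 alone and 864 in F3 alone. They numbered 197 in F1 and F3 only, 164 in F2 and F3 only and 128 in all 3. Of any size, 146 were listed in F1 and F2 only. Whether the neighbours depart from these numbers was not tested.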
